A study of Mus musculus with 15 samples.

Results

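The RING finger (Rnf) and tripartite motif (Trim) genes were examined in WT and maternal Usp16 knockout mouse zygotes and 2-cell embryos. All genes of the deposited expression table whose symbol is Rnf or Trim followed by a digit were taken, with Rnf2, Rnf8 and Rnf168 left out. This gave 106 genes, 63 Rnf and 43 Trim, of the 14392 genes in the table. They were chosen by name from a table that holds only genes with a normalized expression value (FPKM) above 1 in at least 1 library, so Rnf and Trim genes below that level are not among them. Of the 106, 8 are listed only through WT 2-cell libraries, namely Rnf43, Rnf208, Trim14, Trim45, Trim47, Trim54, Trim67 and Trim72, and 8.41% of all genes are listed in this way. The set was proposed with earlier results of these data known. The cysteine and histidine pattern of a RING finger was found in the translated coding sequence of 58 of 62 Rnf and 34 of 43 Trim genes, or 93.5% and 79.1%, compared with 1.52% of 13336 listed genes with a coding sequence. A B-box pattern, typical of Trim proteins, was found in 30 of 43 Trim genes and in none of the 62 Rnf genes, and in 0.232% of the listed genes.

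RNA-seq had been performed on 8 libraries, 2 of each group. WT embryos came from Usp16+/+ females, and cKO embryos from Usp16 fl/fl;Gdf9-Cre females, in which Cre is expressed from a Gdf9 promoter in oocytes only, from the primordial follicle on. All mice were on a C57BL/6 background, and females of both genotypes were 21 to 23 days old, superovulated and mated with WT males 10 to 12 weeks old. The cKO embryos therefore lacked maternal Usp16 and carried a paternal WT allele. Zygotes were collected 28 h after hCG, and each library pooled 10 embryos and was made by Smart-seq2. No source states whether the 2 libraries of a group came from separate mothers, so their spread may be technical.

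Ubiquitin is passed from an activating enzyme (E1) to a conjugating enzyme (E2) and then to a substrate chosen by a ligase (E3). Most Rnf and Trim proteins are E3 ligases that hold the loaded E2 enzyme with a RING domain, and in Trim proteins B-box and coiled-coil regions follow the RING. The oocyte stores the mRNAs and proteins of the zygote, and at the maternal-to-zygotic transition stored mRNAs are degraded while the embryonic genome becomes active, in mice mainly at the 2-cell stage. Ubiquitin ligases take part in the removal of maternal proteins in this period.

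Expression was deposited as FPKM, a fragment count divided by exon length and by library size, in which values under 1 had been set to 1. Usp16 had an FPKM of 184 and 187 in WT zygotes, 16.8 and 22.0 in cKO zygotes, 168 and 183 in WT 2-cell embryos, and 168 and 84.8 in cKO 2-cell embryos. The sum of FPKM over all genes was 547752 to 593317 in 7 libraries and 770989 in cKO 2-cell replicate 2. The 2 replicates lay more than 3-fold apart for 8 members in cKO 2-cell embryos, 1 in WT 2-cell embryos and none in zygotes, and over all genes these shares were 13.3%, 1.38% and at most 0.285%. All 9 oocyte markers were listed, with a summed FPKM of 10220 to 11098 in zygotes, 4903 and 6040 in WT 2-cell embryos, and 1084 and 2571 in cKO 2-cell embryos. Of 10 markers of 2-cell embryos, 4 were listed, with sums of 5.45 to 9.15 in zygotes, 350 and 568 in WT and 134 and 132 in cKO 2-cell embryos. Cumulus and granulosa cell markers were low, with 5 of 14 listed and sums of 27.6 to 31.8 in zygotes and 13.7 to 29.6 in 2-cell embryos, while Amh, Fshr and Inha were not listed. Within this list Cyp19a1 went from 22.3 to 26.7 in zygotes to 1 to 1.78 in 2-cell embryos, and Gja1 from 1 in every zygote library to 7.46 to 17.9. The part of these differences in the results below was not tested. Since embryos were pooled, fewer cells of a kind and less RNA per cell cannot be told apart.

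At the zygote stage, the levels of the 106 genes were led by Trim61. Trim61 had an FPKM of 2452 and 2213 in WT zygotes, compared with 490 and 352 for Rnf141 and 362 and 315 for Trim13, an ER membrane ligase. Rnf114 and Rnf34 had means of 293 and 277. The libraries of Rnf141 and Trim13 overlapped, so these genes could not be ordered. The median member had an FPKM of 7.94 and 7.26 in the WT zygote libraries, and 22 members had the floor value of 1 in each, as did 29.2% of all genes. In WT 2-cell embryos 3 members and 6.78% of all genes were at the floor in both libraries. The order of the highest genes was Rnf141 at 678 and 597, Trim61 at 369 and 498, and Rnf4 at 318 and 361, of which Trim61 and Rnf4 did not differ beyond the gap between their libraries. In cKO 2-cell embryos 24 members and 19.5% of all genes were at the floor in both libraries, and Rnf7 was highest at 557 and 587, ahead of Rnf4 at 476 and 356 and Rnf125 at 397 and 430. The summed FPKM of all members was 6392 and 5845 in WT zygotes, 5780 and 5493 in cKO zygotes, 4783 and 4807 in WT 2-cell embryos, and 4262 and 4361 in cKO 2-cell embryos. Trim61 alone fell by more between the WT stages than this sum did, so the lower WT 2-cell sum rests on 1 gene.

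From the WT zygote to the WT 2-cell embryo, members changed in both directions. In a limma fit of log2(FPKM + 1) over all listed genes, with Benjamini-Hochberg adjustment at 0.05, 29 members (27.4%) rose and 27 (25.5%) fell. Over all genes, 34.2% rose and 15.5% fell. The risers were 22 Rnf and 7 Trim genes, and those that fell were 12 Rnf and 15 Trim genes. By a 3-fold difference in group means, which has no test, 19 members (17.9%) were higher and 15 (14.2%) lower, compared with 26.0% and 8.78% of all genes. The median log2 fold change was 0.16 for members and 0.27 for all genes. After quantile normalization, 20 members rose and 36 fell, compared with 21.6% and 27.3% of all genes. With each library scaled by its median ratio to a geometric mean library, 24 members rose and 29 fell, compared with 25.2% and 19.0% of all genes, and the median log2 ratio of genes above the floor turned from 0.15 to -0.18 for all genes and from 0.07 to -0.26 for 73 members. On this log2 scale, changes of weakly expressed genes come out too small.

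**Figure D1:**
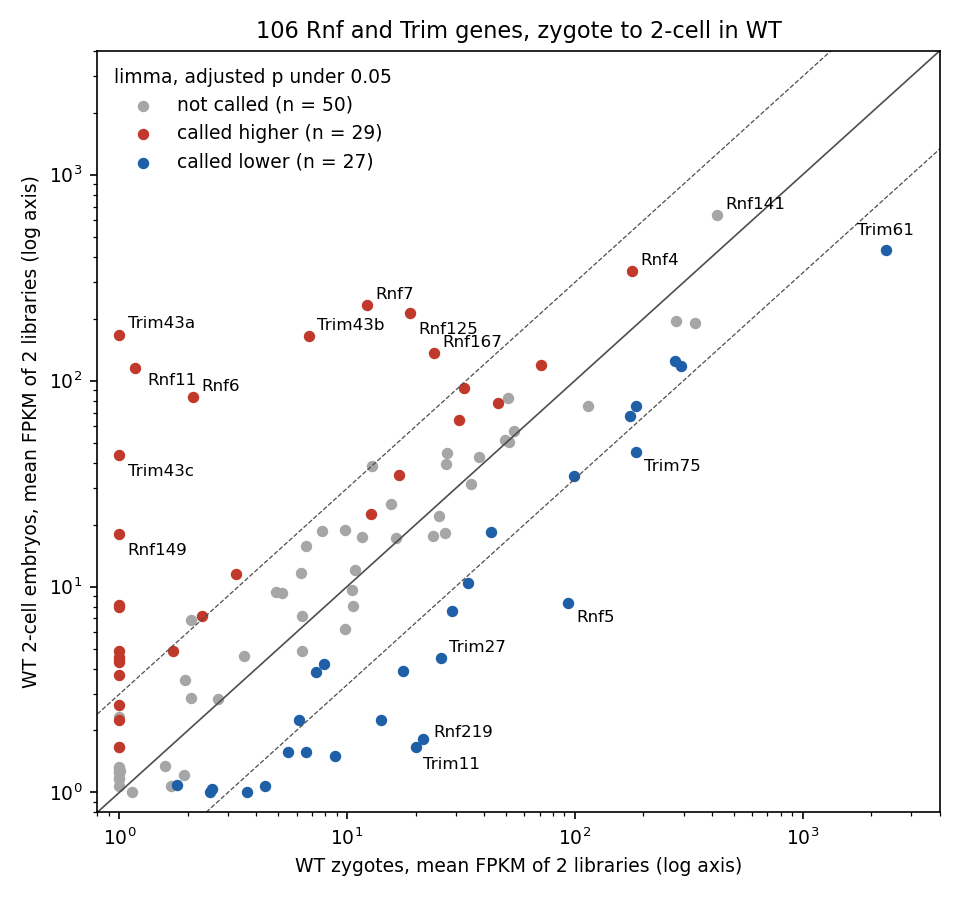
Mean FPKM of each of the 106 Rnf and Trim genes in WT zygotes (x axis) and WT 2-cell embryos (y axis), 2 libraries a group, both on log axes. Red points rose and blue points fell in limma at an adjusted p under 0.05, grey points were not called, the solid line marks equal levels and the dashed lines a 3-fold difference. Trim43a, Trim43c and Rnf149 lie on the floor of 1 in zygotes, and Trim61 is the highest gene in zygotes.

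Rnf11, Rnf6, Rnf7 and Rnf125 were nearly absent or low in WT zygotes and among the highest members in WT 2-cell embryos. Rnf11, a small RING protein found in complexes that edit ubiquitin chains, had an FPKM of 1 and 1.35 in WT zygotes and 113 and 117 in WT 2-cell embryos. The 2 groups were far apart, and the ratio of the means was 98.1, a lower bound for the library at the floor (log2 fold change 5.74, SE 0.21, adjusted p = 8.16e-05). Rnf6, a ligase that acts on the androgen receptor, had 2.14 and 2.05 in zygotes and 97.8 and 68.4 in 2-cell embryos. Rnf7, the RING subunit of cullin ligases also called Rbx2, had 12.7 and 11.7 in zygotes and 256 and 209 in 2-cell embryos, a 19.1-fold difference (log2 fold change 4.14, SE 0.19, adjusted p = 8.93e-05). Rnf125, a ligase of the antiviral sensor RIG-I, had 21.9 and 15.7 in zygotes and 218 and 207 in 2-cell embryos. Neither gene overlapped between stages. Rnf149, a membrane ligase with a protease-associated domain, went from the floor in both zygote libraries to 16.2 and 19.9, at least 18.0-fold. Altogether 13 of the 29 risers stood at that floor in each WT zygote library, so their folds are lower bounds. For 2 of these 13, Rnf43 and Trim54, only WT 2-cell libraries exceeded the floor. A rise was thus the only change between the WT stages that these 2 genes could show. The share of such genes among the risers of the whole table was not computed.

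Among the members that fell, Rnf5, Rnf219 and Trim11 had the largest log2 fold changes. Rnf5, an ER membrane ligase of protein quality control, had an FPKM of 106 and 80.3 in WT zygotes and 9.13 and 7.46 in WT 2-cell embryos, an 11.2-fold difference (log2 fold change -3.33, SE 0.28, adjusted p = 0.000273). Rnf219, which is linked to the start of DNA replication, had 19.8 and 23.3 in zygotes and 1.64 and 1.99 in 2-cell embryos, and Trim11 had 21.1 and 19.2 in zygotes and 2.00 and 1.34 in 2-cell embryos. For all of these genes, both 2-cell libraries lay below both zygote libraries. Trim27, a Trim protein of the nucleus and endosomes, fell from 28.4 and 23.2 to 5.30 and 3.66, and Trim32, a ligase known from muscle, from 12.9 and 15.1 to 1.96 and 2.56. Rnf32 had 18.8 and 16.3 in zygotes and 2.51 and 5.27 in 2-cell embryos (log2 fold change -1.98, SE 0.55, adjusted p = 0.0257). The call on Rnf32 was lost without either WT 2-cell library, either WT zygote library or either cKO zygote library, with an adjusted p of up to 0.173 without WT 2-cell replicate 1.

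The Trim43 genes rose and the Trim60, Trim61 and Trim75 genes fell between the WT stages. Trim43a was at the floor in all 4 zygote libraries and had an FPKM of 183 and 152 in WT 2-cell embryos, at least 168-fold higher (log2 fold change 6.39, SE 0.28, adjusted p = 8.64e-05). Trim43c also went from the floor to 49.5 and 37.3, and Trim43b from 7.98 and 5.63 to 177 and 153. The coding sequences of Trim43a and Trim43b were 98.2% identical, those of Trim43a and Trim43c 96.9%, and those of Trim43b and Trim43c 97.6%, so reads may have been split among these copies and the single values are uncertain. Trim61 fell from 2452 and 2213 to 369 and 498 (log2 fold change -2.44, SE 0.23, adjusted p = 0.000417), Trim75 from 190 and 182 to 38.6 and 51.1 (log2 fold change -2.04, SE 0.22, adjusted p = 0.0007), and Trim60 from 100.2 and 98.6 to 35.5 and 33.4 (log2 fold change -1.50, SE 0.19, adjusted p = 0.00115). In none of the 3 did the stages overlap. These 3 genes are neighbours on chromosome 8 of mm9, Trim75 at 67505550 to 67511545, Trim60 at 67522356 to 67542587 and Trim61 at 67536875 to 67542587. Trim60 and Trim61 overlap on the same strand and may share reads, so their values are not independent. Their coding sequences were 52.6% to 55.4% identical.

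The 250 bases before the RefSeq start site (GRCm38.p6) are shown because the Trim60/61/75 genes moved together and opposite to Trim43a. CG dinucleotides are in capitals. Trim60 and Trim61 share one RefSeq start, and no entry was held for Trim43b and Trim43c.
Trim61, chr8:65018689-65018938, minus strand: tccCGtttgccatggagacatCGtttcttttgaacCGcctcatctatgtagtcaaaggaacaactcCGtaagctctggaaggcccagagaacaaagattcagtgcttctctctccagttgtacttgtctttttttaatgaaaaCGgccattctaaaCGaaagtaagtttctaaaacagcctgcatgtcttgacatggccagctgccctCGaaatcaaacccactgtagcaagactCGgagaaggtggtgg
Trim75, chr8:64987645-64987894, minus strand: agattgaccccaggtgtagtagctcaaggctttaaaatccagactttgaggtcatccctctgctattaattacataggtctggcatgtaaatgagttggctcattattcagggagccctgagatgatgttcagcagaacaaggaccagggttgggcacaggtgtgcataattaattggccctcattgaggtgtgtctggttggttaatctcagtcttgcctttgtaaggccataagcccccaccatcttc
Trim43a, chr9:88580641-88580890, plus strand: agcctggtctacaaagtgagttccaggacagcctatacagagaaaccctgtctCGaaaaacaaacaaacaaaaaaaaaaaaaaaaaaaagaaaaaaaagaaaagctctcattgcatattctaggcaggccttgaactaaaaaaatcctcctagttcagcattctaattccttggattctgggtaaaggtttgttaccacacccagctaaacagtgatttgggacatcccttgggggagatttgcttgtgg
Trim61 has 8 CG dinucleotides in this stretch, Trim75 has 0 and Trim43a has 1. The ratio of observed to expected CG was 0.619, 0 and 0.104, while the median over 81 members with a promoter entry was 0.697.

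In zygotes, no member passed a test between genotypes. By limma with Benjamini-Hochberg adjustment, 0 of 106 members and 0.0208% of all genes passed, and by the 3-fold rule 0 members and 0.153% of all genes. At an unadjusted p under 0.05 there were 4 members, Trim35, Trim38, Trim40 and Rnf152, named after their values were seen, against 408 of all genes. Trim38 had the largest ratio of means, 1.81-fold, with an FPKM of 4.56 and 4.20 in WT and 2.08 and 2.76 in cKO zygotes (log2 fold change -0.66, adjusted p = 0.703 by limma). Trim35 had 1.52 and 2.07 in WT and 3.26 and 3.07 in cKO zygotes. The libraries of the 2 genotypes did not overlap for 38 members, and the share over all genes was not computed. Without any difference, 2 against 2 libraries with untied values separate with a probability of 0.333. Members at the floor in both genotypes cannot separate, so the count cannot be set against this probability. It is not read as a genotype effect. Trim61 was at 2148 and 2075 in cKO zygotes, just below both WT libraries, with a log2 fold change of -0.14. The median log2 fold change was 0 for members and for all genes. The smallest two-sided p that exact permutation of 2 against 2 libraries allows is 0.333.

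In 2-cell embryos, more members were lower than higher in cKO. By limma, 31 members (29.2%) fell and 6 (5.66%) rose, compared with 24.6% and 6.16% of all genes. The 31 were 23 Rnf and 8 Trim genes. The cKO libraries lay outside the WT libraries for all 37, but a call on these same values makes this likely, so it adds no support. The share among all called genes was not computed. By the 3-fold rule, 14 members (13.2%) were lower and 1 (0.943%) higher, and 13.5% and 2.84% of all genes. Member shares were thus close to those of the whole table. The median log2 fold change was -0.33 for members and -0.30 for all genes. These counts depend on the scaling: with the median-ratio scaling, the median log2 ratio of all genes above the floor turned from -0.31 to 0.16, that of 73 members moved from -0.58 to -0.07, and 14 members fell and 8 rose, compared with 12.1% and 9.98% of all genes. They also rest on 1 spread for all groups, and the cKO 2-cell replicates were the farthest apart. With a weight for each group, 7 members fell, namely Rnf185, Rnf187, Rnf215, Rnf31, Rnf43, Trim61 and Trim75, while Trim43c alone rose, compared with 5.93% and 0.834% of all genes. When only the 4 2-cell libraries were fitted, 0 members and 0 of all genes passed by limma, with 37 members and 4235 genes at an unadjusted p under 0.05. Without cKO 2-cell replicate 1, 11 members (and 11.9% of all genes) rose by limma, 22 (19.7%) were over 3-fold lower and 2 (4.57%) over 3-fold higher. Without cKO 2-cell replicate 2, 16 members (and 11.5% of all genes) rose by limma and 4 (3.04%) were over 3-fold higher. Without WT 2-cell replicate 1 or 2, 2 members were over 3-fold higher, compared with 4.0% and 2.68% of all genes.

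**Figure D2:**
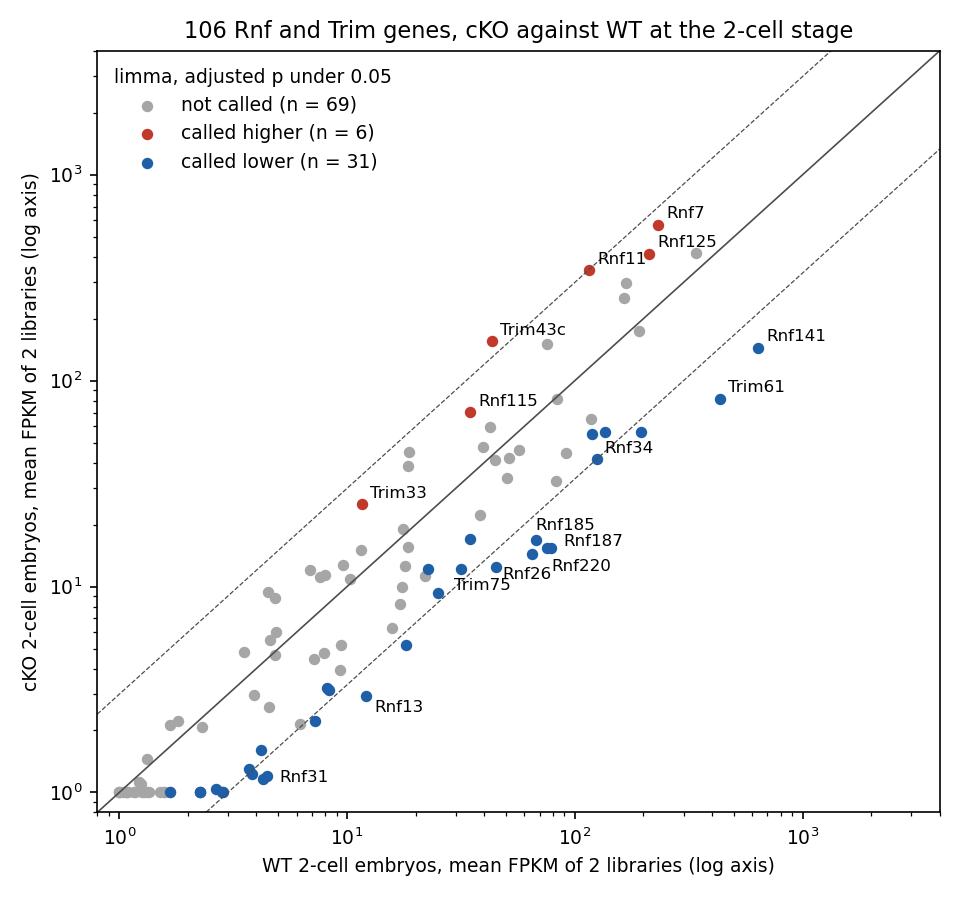
Mean FPKM of each of the 106 Rnf and Trim genes in WT (x axis) and cKO (y axis) 2-cell embryos, 2 libraries a group, both on log axes. Red points were higher and blue points lower in cKO in limma at an adjusted p under 0.05, with 6 and 31 genes, the solid line marks equal levels and the dashed lines a 3-fold difference. Trim61, Rnf141 and Rnf187 lie below the lower dashed line, and Trim43c lies above the upper one.

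Trim61, Rnf220, Rnf187 and Rnf141 had the largest decreases in cKO 2-cell embryos. Trim61 had an FPKM of 369 and 498 in WT and 80.1 and 83.6 in cKO 2-cell embryos, a 5.29-fold difference (log2 fold change -2.37, SE 0.23, adjusted p = 0.002). Its neighbours were lower as well, Trim75 with 38.6 and 51.1 in WT and 10.7 and 14.1 in cKO, and Trim60 with 35.5 and 33.4 in WT and 18.7 and 15.3 in cKO. Rnf187, a coactivator of the transcription factor c-Jun, had 81.2 and 75.2 in WT and 15.7 and 15.2 in cKO 2-cell embryos, a 5.07-fold difference (log2 fold change -2.27, SE 0.19, adjusted p = 0.00144). In zygotes of both genotypes it had 38.2 to 50.8, so the cKO 2-cell level lay below every other library. Rnf26, an ER membrane ligase that positions endosomes, showed the same order, with 66.9 and 62.5 in WT 2-cell embryos, 14.1 and 14.7 in cKO and 26.5 to 35.6 in zygotes (2-cell log2 fold change -2.09, SE 0.20, adjusted p = 0.00204).

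Rnf141 had an FPKM of 678 and 597 in WT and 100.4 and 189 in cKO 2-cell embryos (log2 fold change -2.20, SE 0.34, adjusted p = 0.00686). It was the highest member in WT 2-cell embryos but not among the highest 3 in cKO. Rnf185, a paralog of Rnf5, had 64.6 and 69.8 in WT and 19.3 and 14.4 in cKO, a 3.99-fold difference (adjusted p = 0.00227). Both cKO libraries were below both WT libraries for both of these genes. Rnf220, a ligase of the corepressor Sin3b, had 70.3 and 81.0 in WT and 20.9 and 9.94 in cKO (log2 fold change -2.31, SE 0.41, adjusted p = 0.00981). The call on Rnf220 was lost without either WT 2-cell library, with an adjusted p of up to 0.0742 without WT 2-cell replicate 2. Rnf13, a ligase of endosomes, had 10.8 and 13.3 in WT and 4.90 and 1 in cKO, and one of these cKO libraries was thus at the floor. Its adjusted p of 0.0323 was lost without either WT library of either stage or either cKO zygote library, reaching 0.175 without WT 2-cell replicate 2, and the call was lost after either scaling. Of the 31 members that fell, 5 were at the floor in both cKO libraries, and of these Rnf43 and Trim54 are listed only through WT 2-cell libraries, so a lower cKO value was the only difference between the 2-cell groups that the table could hold for them. Over the whole table, 397 of the 3538 genes called lower are listed only through WT 2-cell libraries. The share at the floor in both cKO libraries was not computed over all genes.

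The 6 members that rose in cKO 2-cell embryos were Trim43c, Rnf11, Rnf7, Trim33, Rnf115 and Rnf125. Trim43c had an FPKM of 49.5 and 37.3 in WT and 147 and 164 in cKO 2-cell embryos, a 3.59-fold difference (log2 fold change 1.83, SE 0.22, adjusted p = 0.00317). Its near-identical copies Trim43a, with 183 and 152 in WT and 226 and 373 in cKO, and Trim43b, with 177 and 153 in WT and 197 and 306 in cKO, did not pass the test (adjusted p = 0.0741 and 0.174). Both cKO libraries were above both WT libraries for all 3 copies. Rnf11 had 113 and 117 in WT and 321 and 365 in cKO, a 2.97-fold difference just under the 3-fold rule (log2 fold change 1.56, SE 0.21, adjusted p = 0.00457), and Rnf7 had 256 and 209 in WT and 557 and 587 in cKO, a 2.46-fold difference (adjusted p = 0.00589).

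Rnf125 had 218 and 207 in WT and 397 and 430 in cKO 2-cell embryos (adjusted p = 0.0174, lost after quantile normalization and without either WT 2-cell library, and 0.0619 without replicate 2). Rnf115, a cytoplasmic ligase, had 34.1 and 35.2 in WT and 77.9 and 62.6 in cKO (adjusted p = 0.0144). Trim33, a transcriptional corepressor and regulator of Smad4, had 12.7 and 10.5 in WT and 29.2 and 21.2 in cKO. Its adjusted p of 0.0424 stayed under the threshold when cKO 2-cell replicate 2 was left out, was lost with the replicate block and when any of the other 7 libraries was left out, and reached 0.174 without WT 2-cell replicate 2. In all 6 genes both cKO libraries lay above both WT libraries, which the calls on these same values make likely.

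**Figure D3:**
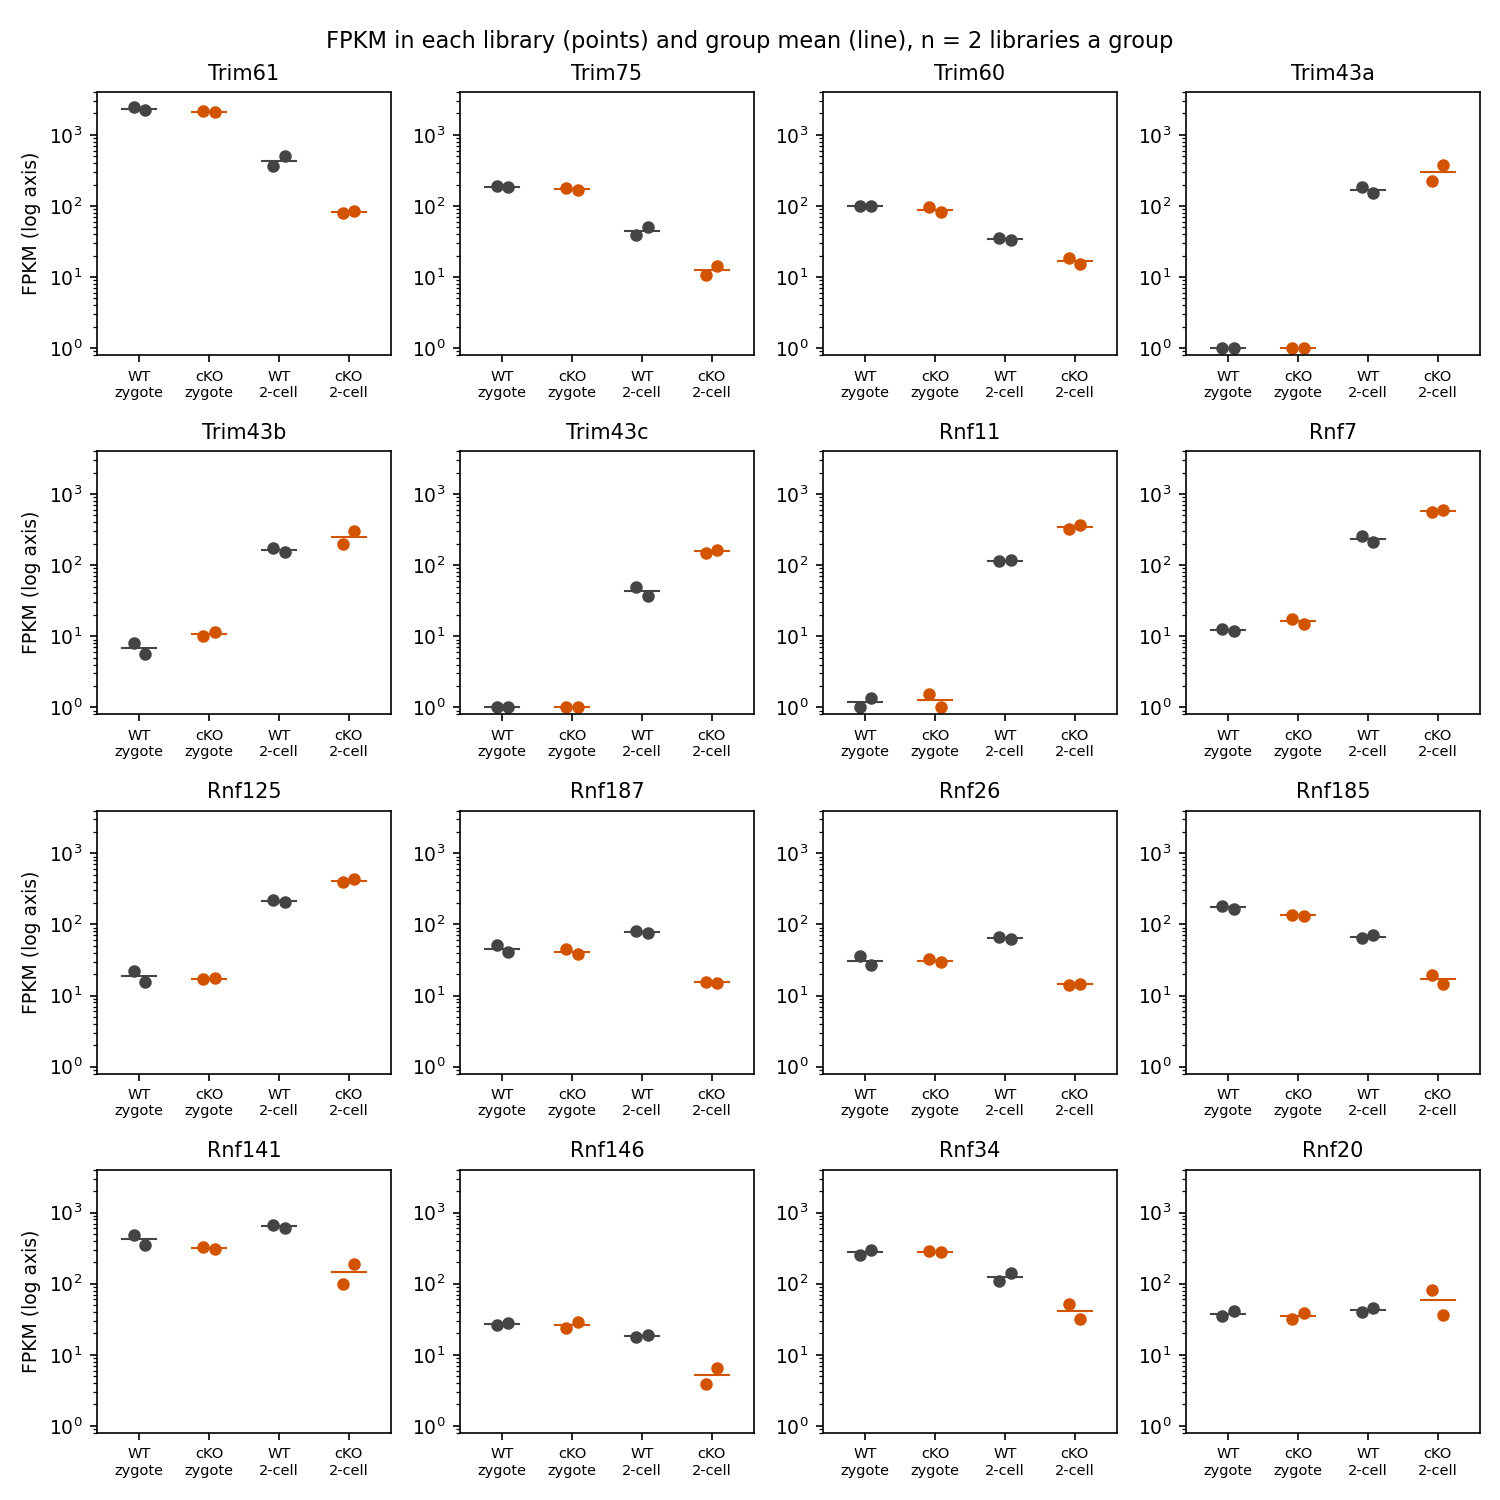
FPKM of 16 Rnf and Trim genes in each of the 8 libraries (points, log axis) with the mean of each group of 2 libraries (line), WT in grey and cKO in orange. Trim61, Trim75 and Trim60 fall from zygotes to 2-cell embryos and lie lower in cKO 2-cell embryos, Rnf187 and Rnf26 are higher in WT 2-cell embryos than in zygotes and lowest in cKO 2-cell embryos, and the cKO 2-cell libraries of Rnf20 lie on both sides of WT.

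The upstream 250 bases of Rnf187 and Rnf26, which rose between the WT stages (Rnf187 no longer after median-ratio scaling) and fell in cKO 2-cell embryos, and of Rnf7, which rose in both comparisons, are shown from the same RefSeq table (GRCm38.p6), with CG in capitals. Rnf11 had no entry.
Rnf187, chr11:58938907-58939156, minus strand: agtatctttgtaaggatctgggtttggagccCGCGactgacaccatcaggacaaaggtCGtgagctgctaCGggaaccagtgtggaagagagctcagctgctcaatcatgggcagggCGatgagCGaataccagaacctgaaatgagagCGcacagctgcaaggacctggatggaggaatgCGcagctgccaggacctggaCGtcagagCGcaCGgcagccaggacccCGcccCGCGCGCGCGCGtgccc
Rnf26, chr9:44113052-44113301, minus strand: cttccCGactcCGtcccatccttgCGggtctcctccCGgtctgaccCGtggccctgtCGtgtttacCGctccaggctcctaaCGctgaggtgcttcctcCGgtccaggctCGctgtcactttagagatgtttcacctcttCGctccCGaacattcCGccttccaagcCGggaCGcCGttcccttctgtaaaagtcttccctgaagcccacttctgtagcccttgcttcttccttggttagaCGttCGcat
Rnf7, chr9:96478676-96478925, minus strand: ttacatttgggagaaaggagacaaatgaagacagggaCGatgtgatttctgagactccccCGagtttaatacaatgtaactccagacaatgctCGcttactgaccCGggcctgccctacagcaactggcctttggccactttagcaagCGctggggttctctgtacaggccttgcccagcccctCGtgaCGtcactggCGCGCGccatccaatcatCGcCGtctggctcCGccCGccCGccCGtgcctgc
Rnf187 and Rnf26 each have 18 CG dinucleotides here and Rnf7 has 16, with observed to expected ratios of 0.776, 0.913 and 0.774. All 3 hold many more CG dinucleotides than Trim75 or Trim43a. Over the 81 members with an entry, the GC box GGGCGG was found on either strand in 54.3%, CCAAT in 39.5% and TATAAA in 8.64%, and in 54.5%, 37.1% and 7.75% of 10168 listed genes. These shares were 32.9%, 34.5% and 13.0% over all 27025 promoters of the table. The median CG ratio was 0.697 for members and 0.699 for listed genes. It was 0.687 over 21 members that rose between the WT stages, 0.619 over 22 that fell, and 0.654 over 22 that were lower in cKO 2-cell embryos. Trim60 and Trim61, with one shared start and thus the same ratio of 0.619, both count in the last 2 of these medians.

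The members were also grouped by known role. Of 11 ligases of the ER membrane, 5 fell and none rose in cKO 2-cell embryos, namely Rnf26, Rnf185, Rnf145, Rnf170 and Rnf5, with a median log2 fold change of -1.18, and 24.6% of all genes fell. After median-ratio scaling 2 fell and the median was -0.77, and 12.1% of all genes fell. Whether the group differed from all genes was not tested. Rnf5 had an FPKM of 9.13 and 7.46 in WT and 2.43 and 3.88 in cKO. Trim13 of the same group had 175 and 208 in WT and 131 and 217 in cKO 2-cell embryos, and these ranges overlapped. Among 5 ligases of the RING-between-RING type, which carry the ubiquitin on a cysteine of their own, Rnf14, Rnf19a and Rnf31 fell, and 1 of the 5 did after scaling. Rnf31, the catalytic subunit of the linear chain complex LUBAC, was at the floor in all zygote libraries and had 3.82 and 5.05 in WT and 1.41 and 1 in cKO 2-cell embryos (log2 fold change -1.30, SE 0.14, adjusted p = 0.00276).

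Of 6 membrane ligases with a protease-associated domain, Rnf13, Rnf43 and Rnf167 fell, and 1 of the 6 did after scaling. Over all genes, 24.6% fell, and 12.1% after scaling, which applies to each group below. Rnf43 had an FPKM of 2.53 and 1.99 in WT 2-cell embryos and the floor value in the other 6 libraries. It is listed only through WT 2-cell libraries, so it could only come out lower in cKO. Rnf167, a ligase of lysosomes and endosomes, rose from 30.4 and 17.7 in WT zygotes to 128 and 143 in WT 2-cell embryos and was at 62.1 and 50.9 in cKO. Of 8 innate immunity genes, Trim26 and Trim30a fell, and after scaling none did. In the Rnf114 family of 4, Rnf125 rose and Rnf138 fell, and after scaling none of the 4 fell. Rnf114 itself, a maternal ligase, fell between the WT stages from 321 and 266 to 129 and 107 (adjusted p = 0.00813) and had 50.9 and 79.3 in cKO 2-cell embryos, which did not pass (adjusted p = 0.0523). Trim3 was the 1 of 3 NHL-repeat Trim genes, Trim54 the 1 of 4 muscle and microtubule Trim genes and Rnf151 the 1 of 2 germline genes that fell in cKO, and after scaling 0 in each of these groups fell. Trim54 had 1.54 and 1.79 in WT 2-cell embryos and the floor value in the other 6 libraries. Like Rnf43, it could thus only come out lower in cKO. The remaining 43 members held 3 risers and 9 that fell, or 3 and 5 after scaling. Of all genes, 6.16% rose, and 9.98% after scaling.

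**Figure D4:**
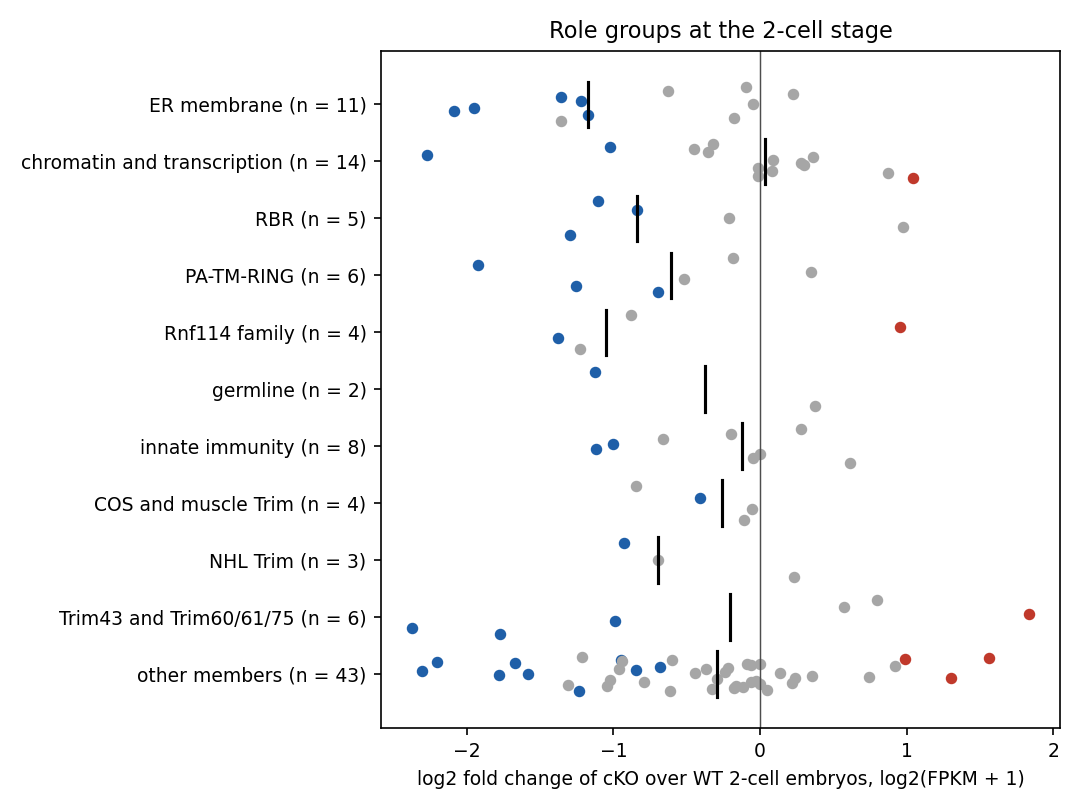
Log2 fold change of cKO over WT 2-cell embryos on the log2(FPKM + 1) scale for each of the 106 genes (points), grouped by role, with the group median (black bar). Red and blue points passed limma at an adjusted p under 0.05 and grey points did not. ER membrane ligases have a median of -1.18, and chromatin and transcription genes one of 0.04.

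Among 14 genes of chromatin and transcription, 1 rose (Trim33) and 2 fell (Rnf187 and Rnf113a1) in cKO 2-cell embryos. One of the 14, Rnf113a2, is annotated as a pseudogene. Over all genes, 6.16% rose and 24.6% fell. After median-ratio scaling 3 of the group rose and 2 fell, compared with 9.98% and 12.1% of all genes. The median log2 fold change of the group was 0.04, or 0.45 after scaling. That of all genes was -0.30 without scaling, and the median log2 ratio of genes above the floor was 0.16 with it. Rnf20 and Rnf40, the paired ligases of histone H2B, were measured in all groups. Rnf20 had an FPKM of 34.9 and 41.2 in WT zygotes, 31.5 and 39.1 in cKO zygotes, 39.8 and 45.1 in WT 2-cell embryos and 82.6 and 36.1 in cKO 2-cell embryos. Rnf40 had 12.3 and 8.99, 10.4 and 8.69, 8.40 and 7.68, and 16.9 and 5.93 in the same order. For both genes the cKO 2-cell libraries lay on either side of WT, and the 2-cell log2 fold changes of 0.36 (SE 0.39) and 0.30 (SE 0.45) did not pass. Rnf4 and Rnf111 are ligases that recognise SUMO chains. Rnf4 rose from 177 and 180 in WT zygotes to 318 and 361 in WT 2-cell embryos (adjusted p = 0.0122) and had 476 and 356 in cKO 2-cell embryos, while Rnf111 stayed between 37.9 and 61.7 in all 8 libraries and passed no test.

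The corepressors Trim24 and Trim28, relatives of Trim33, did not pass any test. Trim24 lay between 15.6 and 26.3 in all 8 libraries. Trim28, also called Kap1, had 27.6 and 27.0 in WT zygotes, 23.4 and 23.7 in cKO zygotes, 40.1 and 38.7 in WT 2-cell embryos and 75.5 and 19.9 in cKO 2-cell embryos, so that 1 cKO library was above and 1 below WT. Trim71, a repressor of mRNAs, had the replicates farthest apart of all members, with 15.9 and 1.73 in cKO 2-cell embryos, 4.02 and 5.68 in WT 2-cell embryos and 5.37 to 7.21 in zygotes. Of the 8 members with cKO 2-cell replicates more than 3-fold apart, 6 were higher in replicate 1 and 2 in replicate 2.

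The difference of the genotype effect between stages was tested in the same model. It passed for 15 members (14.2%), of which 13 had a lower and 2 a higher cKO effect at the 2-cell stage, compared with 11.8%, 10.2% and 1.58% of all genes. The largest differences in log2 fold change were -2.23 for Trim61 (SE 0.32, adjusted p = 0.016), -2.13 for Rnf187 (SE 0.27, adjusted p = 0.0122), -2.10 for Rnf26 (SE 0.29, adjusted p = 0.0142) and 1.83 for Trim43c (SE 0.31, adjusted p = 0.0214). Leaving out any 1 of the 4 zygote libraries leaves 1 library in that group. All 15 of these calls were then lost, and so were nearly all calls over the whole table. When 1 cKO 2-cell library was left out instead, more members and a larger share of all genes passed. With the replicate block 9 members and 7.88% of all genes passed. The swing was thus one of the whole table.

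Ubiquitin genes and the enzymes that act before the ligases were compared as a list of 37, of which 36 were in the table. Between the WT stages 15 of the 36 rose and 4 fell, compared with 34.2% and 15.5% of all genes. The ubiquitin fusion gene Rps27a, at 9.20 and 12.3 in WT zygotes and 444 and 295 in WT 2-cell embryos, was among those that rose. In cKO 2-cell embryos 5 rose and 8 fell, compared with 6.16% and 24.6% of all genes. Ube2l3, the partner of RING-between-RING ligases, rose from 47.9 and 35.4 in WT to 142 and 242 in cKO (log2 fold change 2.14, adjusted p = 0.00518), and Ube2k, an E2 enzyme that builds ubiquitin chains, fell from 124 and 117 to 42.2 and 37.1 (log2 fold change -1.58, adjusted p = 0.00273). Ube2d3, the highest E2 gene in WT zygotes at 1341 and 1491, fell from 831 and 728 in WT to 340 and 400 in cKO 2-cell embryos. In zygotes 0 of the 36 and 0.0208% of all genes differed between genotypes by limma. At an unadjusted p under 0.05, 1 of the 36 and 408 of all genes did. The median log2 fold change of the list at the 2-cell stage was -0.07, compared with -0.33 for the ligases and -0.30 for all genes.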

How the data were processed

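RNA-seq of 8 libraries, 2 each of WT and cKO zygotes and 2-cell embryos, was analysed. Libraries were grouped by their labels, and 7 ChIP-seq samples were not used here. The authors trimmed the reads to 50 bp, mapped them to mm9 with TopHat2 2.1.1 and computed FPKM with Cufflinks 2.2.1 (per the labels and the study's methods), and the deposited FPKM values are called normalized without a further step being named. The gene annotation is not given in the sources used here. In the table, no value is under 1 and all 14392 genes exceed 1 in at least 1 library. FPKM carries no counts, so the depth is unknown and precision rests on 2 libraries a group.

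For the tests, limma 3.58.1 in R 4.3.3 took log2(FPKM + 1) of all listed genes, fitted the 4 groups together (leaving 4 residual degrees of freedom), let the prior variance follow expression, and adjusted p by Benjamini-Hochberg at 0.05. It was tested on simulated data. The 3-fold rule of the study was applied to group means. Tables were handled in Python 3.11.15 with numpy 2.4.6 and pandas 2.3.3, and coding sequences were aligned with Biopython 1.88. Positions and coding sequences came from GENCODE M1 on mm9, which held positions for all 106 members and coding sequences for 105. Upstream sequences came from RefSeq (GRCm38.p6), with 81 members matched.

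The members, role groups and gene lists were chosen with earlier results of these data known. Named in full were, for each limma comparison and direction, up to 8 members with the largest change and groups apart, the 3 highest in each group, 3 with replicates farthest apart, and 16 set by name: Rnf20, Rnf40, Rnf4, Rnf111, Rnf114, Rnf31, Trim24, Trim28, Trim33, Trim71, Trim43a, Trim43b, Trim43c, Trim60, Trim61 and Trim75. Other members and E2 genes were named as examples after their values were seen. Alternatives covered the pseudocount, the scaling, the model of the spread, the replicate number as a block, a minimum mean FPKM of 3, the fold threshold and leaving out each library. Values of 1 member and 1 listed ubiquitin gene are not reported here and enter only the counts. The crossed block was added after the data were seen.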

Additional observations from a re-analysis of the deposited data

Results flagged for a closer look

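The genotype effect differed between zygotes and 2-cell embryos, by the interaction term of limma with Benjamini-Hochberg adjustment, for 15 of the 106 Rnf and Trim genes, compared with 11.8% of all genes. In 13 of them the cKO value was relatively lower at the 2-cell stage. Among the largest, the differences in log2 fold change (2-cell minus zygote) were -2.23 for Trim61, -2.13 for Rnf187, -2.10 for Rnf26, 1.83 for Trim43c, -1.68 for Trim75 (adjusted p = 0.0276), -1.62 for Rnf146 (adjusted p = 0.044) and -1.61 for Rnf34 (adjusted p = 0.0474).

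Rnf146, a ligase that recognises poly(ADP-ribose), had an FPKM of 23.6 to 28.7 in the 4 zygote libraries, 17.7 and 18.7 in WT and 3.84 and 6.51 in cKO 2-cell embryos. Rnf34 had 252 to 301 in the zygote libraries, 109.9 and 139 in WT and 51.0 and 32.3 in cKO 2-cell embryos. Over the alternatives, the adjusted p lay between 0.00767 and 0.0984 for Trim61, 0.00863 and 0.0812 for Rnf187, 0.0116 and 0.0916 for Rnf26, 0.00763 and 0.106 for Trim43c, 0.015 and 0.129 for Trim75, 0.00938 and 0.223 for Rnf146, and 0.0126 and 0.173 for Rnf34. Each of these 7 calls was lost when any 1 of the 4 zygote libraries was left out. Those on Trim75, Rnf146 and Rnf34 were also lost after either scaling, and those on Rnf146 and Rnf34 with the replicate block.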

How the results depend on the processing

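No called log2 fold change of a named member changed sign under an alternative. Medians did with median-ratio scaling: over all genes above the floor from 0.15 to -0.18 between the WT stages and from -0.31 to 0.16 in cKO 2-cell embryos, over members between stages from 0.07 to -0.26 (chromatin and transcription genes 0.12 to -0.21, the Rnf114 family 0.07 to -0.23, germline genes 0.19 to -0.18), and in cKO 2-cell embryos over the 6 Trim43, Trim60, Trim61 and Trim75 genes from -0.21 to 0.26 and over the 2 germline genes from -0.37 to 0.04. Of 584 settings over 38 results for named members, 477 left the call in place and 107 lost it, and 15 of the 38 were never lost. These 15 were all changes between the WT stages. Every named call in cKO 2-cell embryos, and every one on the difference between stages in genotype effect, was lost under some alternative. With group-wise array weights, 1 member was higher and 7 lower in cKO 2-cell embryos, compared with 0.834% and 5.93% of all genes. The effect differed between stages for 6 members and 5.16% of all genes with these weights. With only the 4 libraries compared, 0 members and 0 of all genes were higher or lower in cKO 2-cell embryos. Median-ratio scaling gave 14 members and 12.1% of all genes lower in cKO 2-cell embryos by limma. By the 3-fold rule, 12 members and 19.7% of all genes were then higher in WT 2-cell embryos than in zygotes. In cKO, 4 were higher and 6 lower, compared with 6.9% and 6.29% of all genes. Quantile normalization gave 15 lower in cKO 2-cell embryos and 6 that differed between stages, compared with 10.2% and 5.13% of all genes. At 2-fold, 29 members were higher and 24 lower in WT 2-cell embryos, compared with 36.5% and 15.6% of all genes. In cKO, 8 were higher and 36 lower at 2-fold, compared with 8.75% and 28.6% of all genes. With every library over 3-fold apart, 0 were higher and 6 lower in cKO 2-cell embryos, compared with 0.771% and 6.82% of all genes. A pseudocount of 1 left 11 members and 20.1% of all genes higher in WT 2-cell embryos. The fits of only the 4 libraries compared used fewer samples. Between the WT stages this setting gave 38 members higher and 29 lower, compared with 35.1% and 16.1% of all genes. The cause of these changes was not tested.

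With the replicate block, 30 members rose and 26 fell between the WT stages, compared with 33.6% and 15.2% of all genes. In cKO 2-cell embryos, 5 rose and 32 fell, compared with 5.42% and 23.3% of all genes. In zygotes 0 members and 0.00695% of all genes passed, and 9 and 7.88% had a stage-dependent effect. By the fold rule the block gave 20 and 15 between stages, compared with 25.9% and 8.79% of all genes. It gave 1 and 16 in cKO 2-cell embryos, compared with 2.36% and 14.9% of all genes. Same-numbered libraries deviated together in zygotes (correlation across genes 0.497) but not in 2-cell embryos (-0.239), and no source says that a number marks a shared batch. The crossed pairing gave 7 higher and 32 lower in cKO 2-cell embryos, compared with 6.48% and 24.6% of all genes.

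Leaving out each library in turn gave, by limma, 23 to 41 members higher and 19 to 29 lower in WT 2-cell embryos than in zygotes, 4 to 16 higher and 22 to 43 lower in cKO 2-cell embryos, 0 in zygotes and 0 to 41 with a stage-dependent effect. By the 3-fold rule it gave 18 to 19 higher and 14 to 16 lower between stages, 2 to 4 higher and 14 to 22 lower in cKO 2-cell embryos and 0 in zygotes. Over all genes, the limma shares between the WT stages, in cKO 2-cell embryos and for the stage-dependent effect also rose and fell with the library left out. In each of these comparisons, the member count and the share of all genes were both largest without a cKO 2-cell library. By the 3-fold rule, the shares of all genes changed as well. Each setting leaves 1 library in a group, and these ranges are not read as traits of the members. Depth is unknown, so low members such as Rnf31, Rnf43 and Trim54 have no counting error.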
